A study of Homo sapiens with 18 samples.

Results

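Of the 4617 intervals that were bound by both antibodies after miR-130a knockdown and not listed as bound by both in control (knockdown-unique intervals), 269, or 5.83%, already carried a control anti-ETO peak and lacked a control anti-Flag peak. They were chosen by position alone: each overlapped a control anti-ETO peak by at least 1 bp and no control anti-Flag peak. At these 269 sites the ETO antibody gave a peak in both conditions, and an anti-Flag peak was listed on the interval only after knockdown. That anti-Flag peak overlapped the control anti-ETO peak at 255 sites and missed it at 14. Of the 269, 1 also overlapped an interval listed as bound by both antibodies in control. The other knockdown-unique intervals had a control anti-Flag peak only (2542), no control peak (1760) or control peaks of both antibodies (46).

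AML1-ETO is the fusion protein made by the t(8;21) translocation of acute myeloid leukaemia. It joins the DNA-binding Runt domain of RUNX1 to most of RUNX1T1 (ETO), a protein that recruits corepressors, and it occupies RUNX sites at promoters and enhancers of blood cell genes. An antibody against ETO can bind any AML1-ETO molecule of the cell, tagged or not, whereas an antibody against Flag binds only the tagged molecules.

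Binding had been mapped by CUT&RUN, in which a nuclease is tethered to antibody-bound chromatin and the DNA it cuts free is sequenced, in Kasumi-1, a human cell line with this translocation that here carried Flag-tagged AML1-ETO. The series held 18 libraries in 6 groups of 3: control or miR-130a knockdown, each with anti-ETO, anti-Flag or mouse IgG, from GFP-positive cells sorted 3 days after transduction. What the control cells carried, how the tagged line was made and whether it is a clone are not given in the sources used here. The deposited values were peak positions on hg38, with 1 list per antibody and condition and none per library, so no value has a spread over replicates and the depth behind a peak is unknown. The lists held 14264 control anti-ETO, 23162 control anti-Flag, 22594 knockdown anti-ETO and 25961 knockdown anti-Flag peaks. The tests below count intervals, which are not replicates of a condition, and no p-value here speaks to whether a difference would recur in other cultures. Markers of the cell line could not be checked, since peak positions carry no expression.

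The promoter windows of 4 genes among the widest of the 269 intervals or in the gene lists are shown first. They are not typical of the 269. At KIT, ZDHHC20 and TFE3 the knockdown anti-Flag peak missed the control anti-ETO peak, as at 14 of the 269. At the other 255 these peaks overlapped. At TNPO1 the control anti-ETO peak, 1190 bp, was the widest among the 269. Each window runs from 250 bases before to 50 bases after the annotated gene start, on the strand of the gene, and comes from RefSeq (GRCh38.p14). Capitals mark the bases under the control anti-ETO peak. KIT (chr4:54657707-54658006, plus strand), which encodes the stem cell factor receptor of blood progenitors, had that peak over 21 bases at the downstream end of the window and the knockdown anti-Flag peak over the first 78 bases. ZDHHC20 (chr13:21459254-21459553, minus strand), a palmitoyltransferase, had the control anti-ETO peak over the 94 bases at the downstream end and no anti-Flag peak in the window. TFE3 (chrX:49043308-49043607, minus strand), a transcription factor of lysosomal genes, had it over the last 88 bases. TNPO1-DT (chr5:72816499-72816798, minus strand), the divergent transcript of the nuclear import receptor gene TNPO1, lay wholly under the control anti-ETO and the knockdown anti-Flag peaks. In ZDHHC20 and TFE3 the marked bases span the gene start, in KIT they begin downstream of it, and none of the 4 windows holds the RUNX core TGTGGT on either strand.
KIT: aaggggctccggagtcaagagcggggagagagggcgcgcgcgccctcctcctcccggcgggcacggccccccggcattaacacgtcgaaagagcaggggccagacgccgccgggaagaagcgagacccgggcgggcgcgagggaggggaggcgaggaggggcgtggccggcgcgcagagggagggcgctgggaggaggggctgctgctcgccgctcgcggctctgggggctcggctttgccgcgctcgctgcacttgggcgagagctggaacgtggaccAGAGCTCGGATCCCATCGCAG
ZDHHC20: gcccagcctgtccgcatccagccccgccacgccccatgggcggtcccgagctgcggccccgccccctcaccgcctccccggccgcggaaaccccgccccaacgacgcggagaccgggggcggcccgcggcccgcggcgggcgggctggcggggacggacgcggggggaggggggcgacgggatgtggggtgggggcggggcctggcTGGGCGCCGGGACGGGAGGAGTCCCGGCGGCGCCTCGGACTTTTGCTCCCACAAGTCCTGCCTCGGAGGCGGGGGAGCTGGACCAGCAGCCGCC
TFE3: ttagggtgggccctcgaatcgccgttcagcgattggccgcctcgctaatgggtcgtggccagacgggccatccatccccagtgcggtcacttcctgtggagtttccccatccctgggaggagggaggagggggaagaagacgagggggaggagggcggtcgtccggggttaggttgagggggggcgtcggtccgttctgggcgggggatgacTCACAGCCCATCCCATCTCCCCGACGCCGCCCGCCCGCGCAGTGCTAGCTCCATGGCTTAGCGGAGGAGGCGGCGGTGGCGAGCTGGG
TNPO1-DT: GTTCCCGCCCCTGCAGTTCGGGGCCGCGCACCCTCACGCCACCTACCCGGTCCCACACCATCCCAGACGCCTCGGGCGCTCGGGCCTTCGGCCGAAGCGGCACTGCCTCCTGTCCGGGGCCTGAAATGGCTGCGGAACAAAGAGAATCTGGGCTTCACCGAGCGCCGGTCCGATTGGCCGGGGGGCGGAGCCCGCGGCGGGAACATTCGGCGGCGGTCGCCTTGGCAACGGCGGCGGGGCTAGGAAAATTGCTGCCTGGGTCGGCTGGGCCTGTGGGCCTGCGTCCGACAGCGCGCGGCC

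The core of the RUNX recognition site, TGTGGT on either strand, was found in 14 of the 155 promoter windows that touched the 269 intervals (9.03%, 95% Wilson interval 5.46 to 14.6), against 13.1% of all 35116 windows and 10.4% of the 5905 windows at shared intervals, which both antibodies bound in both conditions. These are letter matches, not sites of binding, and the shares were not tested. Windows that overlap one another can hold the same core, and 12 distinct cores were listed, 8 of them inside the interval itself. Of the 12, 4 lay under the control anti-ETO peak (RIMS3, CFAP20, VAC14 and ITCH), and 3 of these also lay under the knockdown anti-Flag peak (RIMS3, CFAP20 and VAC14). Cores inside the intervals of named genes are shown with the bases around them, the core in capitals, read on the strand that holds TGTGGT; a run is shorter where the window ends, and a core at an uncharacterised locus is left out.
RIMS3, chr1:40665820-40665825, plus strand: ggcttgccgggtTGTGGTtgggggacctac
SIRT4, chr12:120302271-120302276, plus strand: gattgtgggactTGTGGTttttctcgcatc
CFAP20, chr16:58129336-58129341, minus strand: gacggtagttgcTGTGGTttcc
VAC14, chr16:70801310-70801315, plus strand: aggtagctggagTGTGGTttgagacgtgct
ZNF580, chr19:55642092-55642097, minus strand: aatcTGTGGTttcttctttttt
DZANK1, chr20:18467031-18467036, minus strand: gctcgccgcgtcTGTGGTaacccgggcggc
ITCH, chr20:34363279-34363284, plus strand: cgctctagtagcTGTGGTcggggctcggga

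The control anti-ETO peaks at the 269 intervals were narrow, as were control anti-ETO peaks without a control anti-Flag peak in general. Those, 1480 in all, had a median width of 257.5 bp (95% interval of the median 243 to 268). At the 269 intervals the median was 288 bp (261 to 321), against 461 bp for all control anti-ETO peaks. Widths at the 269 ran from 176 to 1190 bp. After knockdown the anti-ETO peaks at the same places had a median width of 454 bp (422 to 492), and 219 of 269 (81.4%) were wider than their control counterpart, 6 were equal and 44 were narrower. The newly listed anti-Flag peaks had a median width of 313 bp (296 to 334) and were narrower than the knockdown anti-ETO peak at 224 intervals (83.3%). Thus the typical interval held a short control anti-ETO peak, a longer knockdown anti-ETO peak and a knockdown anti-Flag peak of about the length of the first. At shared intervals, too, the knockdown anti-ETO median, 872 bp, was above those of control anti-ETO, 621 bp, and knockdown anti-Flag, 553 bp. The knockdown anti-ETO and anti-Flag medians were 428 and 433 bp with a control anti-Flag peak only, and 353 and 351 bp with no control peak.

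**Figure D1:**
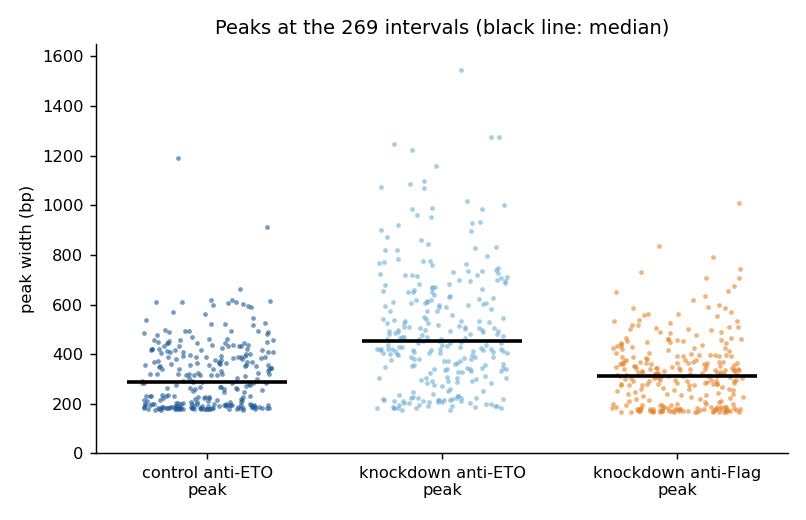
Width in bp (vertical axis) of the control anti-ETO, knockdown anti-ETO and knockdown anti-Flag peak at each of the 269 intervals, 1 point an interval (the peak with the longest overlap where there were several), with a black line at the median. The medians are 288, 454 and 313 bp, and the knockdown anti-ETO points reach 1547 bp.

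The ratio of knockdown to control anti-ETO width had a median of 1.42 (95% interval 1.26 to 1.64) and quartiles of 1.07 and 2.09, and it was 2 or more at 76 intervals. The same ratio was 2.16 (1.77 to 2.72) at the 46 knockdown-unique intervals with both control peaks and 1.26 at shared intervals. It was 1.13 at the 654 control anti-ETO peaks that lacked an anti-Flag peak in both conditions and met an anti-ETO peak after knockdown. Widths are given as a description, since the same lists chose the intervals. TGIF1, a homeobox repressor that acts on SMAD proteins, had the highest ratio at 6.79, with a control anti-ETO peak of 228 bp and a knockdown one of 1547 bp. NSMF followed at 5.34, ZNF439, a zinc finger gene, at 5.06, the site nearest to NCL, which encodes the nucleolar protein nucleolin, at 4.67, and MAEA, a ubiquitin ligase subunit, at 4.66. The lowest ratio was 0.365, near AP2A1, an adaptor of clathrin-coated vesicles, where a control anti-ETO peak of 609 bp faced a knockdown one of 222 bp. These genes were named after their values were seen.

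How the peaks lay on each other is a description, since the rule asks each interval to meet a control anti-ETO peak and 265 of the 269 intervals are the span of the knockdown anti-ETO and anti-Flag peaks. The knockdown anti-Flag peak overlapped the control anti-ETO peak at 255 of 269 intervals and missed it at 14, and the median overlap was 182 bp. At the centre of the control anti-ETO peak, a knockdown anti-ETO peak was present at 96.3% of the intervals and a knockdown anti-Flag peak at 80.7%. The control anti-ETO peak lay wholly inside the knockdown anti-ETO peak at 165 intervals. The knockdown anti-Flag peak lay wholly inside the knockdown anti-ETO peak at 168 intervals.

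The 14 intervals where the new anti-Flag peak sat beside the old anti-ETO peak included those at TGIF1, ZNF581, ZDHHC20 and TFE3, which are among the 10 widest and described next, and at KIT, HK1, KDM2B, MAEA, STARD3, FAM98A, DZANK1, ILF2 and FAM131A. At KIT the interval was chr4:54657596-54658223, the control anti-ETO peak covered its downstream end from 54657986 to 54658220, and the anti-Flag peak of 189 bp ended upstream of it at 54657784. At HK1, the hexokinase of the first step of glycolysis, a control anti-ETO peak of 233 bp and a knockdown anti-Flag peak of 179 bp lay apart within a knockdown anti-ETO peak of 797 bp. At KDM2B, which brings a Polycomb complex to CpG islands, the same peaks measured 223, 368 and 819 bp. In these 3 cases the knockdown anti-ETO peak met both of the separate peaks.

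The 269 intervals measured 182 to 1547 bp, with a median of 496 bp (95% interval 454 to 535). The widest lay at TGIF1 (chr18:3449104-3450650, 1547 bp), where the control anti-ETO peak and the knockdown anti-Flag peak of 235 bp did not meet. The second lay at the neighbouring zinc finger genes ZNF580 and ZNF581 (chr19:55641241-55642757, 1517 bp), with a control anti-ETO peak of 526 bp and a knockdown anti-Flag peak of 651 bp that did not meet. KPNA3, a nuclear import adaptor, held 1 of 1369 bp (chr13:49791068-49792436), ZDHHC20 1 of 1317 bp (chr13:21458555-21459871), and TNPO1 1 of 1276 bp (chr5:72815957-72817232). At TNPO1 the control anti-ETO peak was already 1190 bp wide, the widest among the 269, so this interval differs from the narrow-peak pattern.

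The next widest were at TFE3 (1246 bp, chrX:49042139-49043384), at EEF1AKMT4-ECE2 and CAMK2N2 (1241 bp, chr3:184260124-184261364), inside VPS26C, a subunit of an endosomal recycling complex (1126 bp, chr21:37257704-37258829), at CNOT6L, a catalytic subunit of the CCR4-NOT deadenylase (1096 bp, chr4:77819826-77820921), and at PPIL6 and SMPD2 (1084 bp, chr6:109440449-109441532). VPS26C was the 1 interval of these 10 that lay within a gene and over 1 kb from its ends. At CNOT6L the control anti-ETO peak measured 911 bp, and at PPIL6 545 bp. Of the 10 widest, 5 began from a control anti-ETO peak above the 461 bp median of that list, those at TNPO1, CNOT6L, KPNA3 (590 bp), PPIL6 and ZNF581.

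The overlap that the rule asks for ran from 28 to 1178 bp, with a median of 261 bp, and 3 intervals had less than 100 bp. Short overlaps were 63 bp at FAM131A (chr3:184336025-184336695), 71 bp at chr15:70142049-70142284, whose nearest protein-coding gene is TLE3, a Groucho-family corepressor 44131 bp away, 111 bp at chrX:39946630-39946925, 104320 bp from BCOR, and 138 bp at chr17:8057321-8057800, 8186 bp from ALOX15B. The longest overlaps were at TNPO1 (1178 bp), CNOT6L (911 bp), the site nearest to TMEM44 (620 bp), KRABD5 (619 bp) and FOSB, an AP-1 subunit (616 bp). Just outside the rule, the knockdown-unique intervals without a control peak that came closest to a control anti-ETO peak were at OCEL1 (79 bp away), GNPTAB (116 bp), MALT1 (120 bp), RNH1 (141 bp) and PC (147 bp).

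How near the missing control anti-Flag peak came is also a description, since the rule used that list. The gap to the nearest control anti-Flag peak had a median of 4250 bp and reached 1003122 bp at PTPRK, a receptor tyrosine phosphatase. It was at most 500 bp at 83 intervals (30.9%), against 24.0% of all knockdown-unique intervals without a control anti-Flag peak and 22.9% of the 1760 with no control peak. It was over 10 kb at 108 intervals (40.1%), against 22.3% of those 1760. Among all 1480 control anti-ETO peaks without a control anti-Flag peak, measured from the peak, 27.6% had such a peak within 500 bp and 49.7% within 10 kb. The 269 intervals had 30.9% and 59.9%, so long gaps were not particular to them. The 269 sites therefore fell into some with a control anti-Flag peak close beside them and more with none for several kilobases. If a control anti-Flag peak within 1000 bp had counted as present, 157 of the 269 would have remained.

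**Figure D2:**
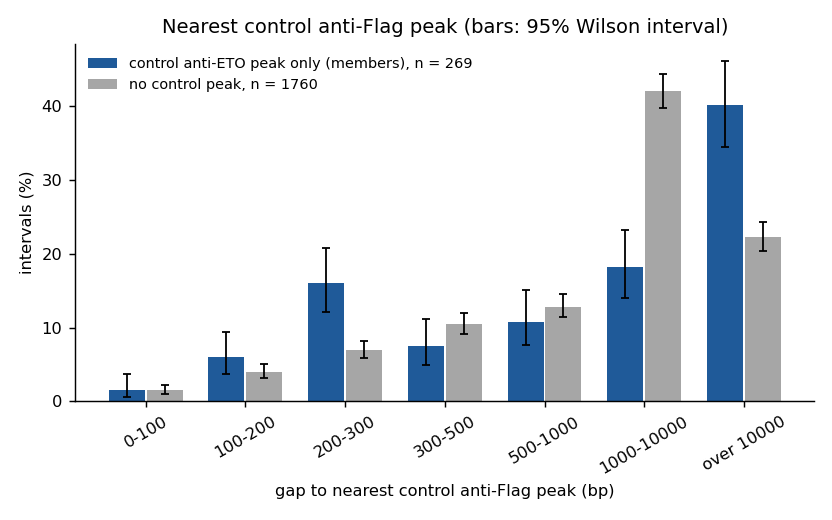
Share of intervals in % (vertical axis) by gap in bp to the nearest control anti-Flag peak (horizontal axis, ranges of unequal width), for the 269 intervals and for the 1760 knockdown-unique intervals with no control peak; error bars are 95% Wilson intervals. The 269 have 40.1% over 10000 bp and 43 intervals at gaps of 200 to 300 bp, against 22.3% and 122 intervals of the 1760.

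The gap varied widely among promoter sites. At NFKB1, a subunit of NF-kB, the gap was 156296 bp, at RPS14, a protein of the small ribosomal subunit, 206356 bp, and at EIF4E2, a cap-binding protein, 508808 bp. At TGIF2, a relative of TGIF1, it was 230 bp, at CTBP2, a corepressor, 265 bp, and at RPS26, another small-subunit protein, 280 bp. These genes, named after their values were seen, all had the interval on a promoter window.

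Position relative to genes was not part of the rule and was tested. The 269 intervals lay at gene starts more often than the other large classes of knockdown-unique intervals, at a share close to that of control anti-ETO peaks in general. The comparison by promoter window was not planned, whereas that by gene boundary, given below, was. An interval overlapped a promoter window, as defined above, in 114 of 269 cases (42.4%, 95% Wilson interval 36.6 to 48.4), against 13.1% of all knockdown-unique intervals and 39.8% of all control anti-ETO peaks. The share was 10.9% among the 2542 intervals with a control anti-Flag peak only, an odds ratio of 6.04 (two-sided Fisher's exact test, p = 3.9e-34 adjusted by Benjamini-Hochberg over 3 comparisons). It was 11.2% among the 1760 with no control peak (odds ratio 5.80, p = 1.9e-31 by the same exact test and adjustment). The 46 intervals with both control peaks had 32.6% (95% Wilson interval 20.9 to 47.0) on promoter windows and 58.7% within 1 kb of a gene boundary, and were not tested. Shared intervals had 46.1% on promoter windows, and the difference of -3.76 percentage points did not pass Fisher's exact test (adjusted p = 0.238).

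That last comparison depended on how intervals were counted. With 1 interval kept for each run within 10 kb the difference from shared intervals was -7.32 points (Fisher's exact test, adjusted p = 0.0202), and with the wider 50% of each class it was -8.77 points (adjusted p = 0.0450). Shared intervals were longer, with a median of 1047 bp, and a longer interval meets a window more easily; the part of length in these differences was not tested.

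**Figure D3:**
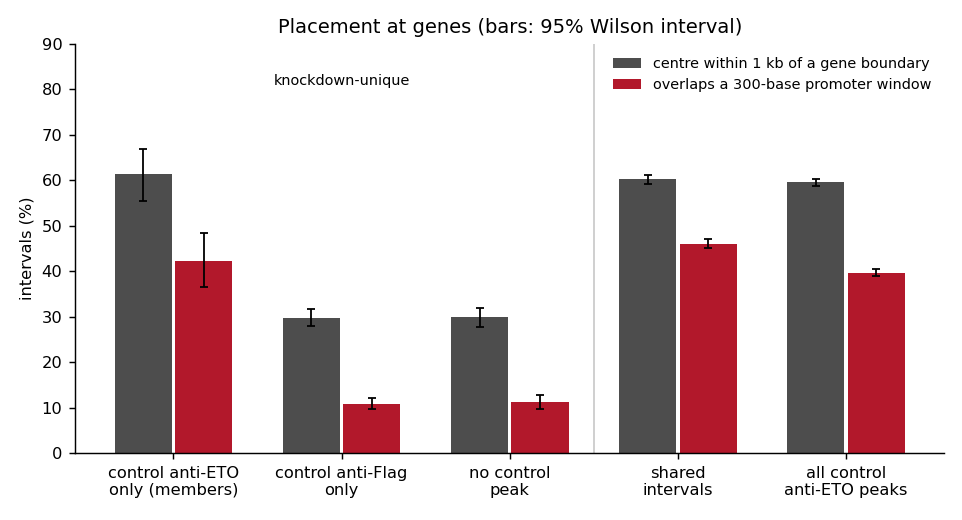
Share of intervals in % (vertical axis) whose centre lies within 1 kb of a gene boundary (grey) or that overlap a 300-base promoter window (red), for the 3 largest classes of knockdown-unique intervals, shared intervals and all control anti-ETO peaks; error bars are 95% Wilson intervals. The 269 stand at 61.3% and 42.4%, against 29.9% and 10.9% to 11.2% in the other knockdown-unique classes, 60.2% and 46.1% in shared intervals and 39.8% on promoter windows for all control anti-ETO peaks.

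By distance, too, and with the same limit, the 269 stood above the other large knockdown-unique classes, which lack a control anti-ETO peak. The centre lay within 1 kb of either end of an annotated gene in 165 of 269 cases (61.3%, 55.4 to 67.0). This compares with 32.0% of all knockdown-unique intervals and 59.6% of all control anti-ETO peaks. The share was 29.9% both with a control anti-Flag peak only and with no control peak (odds ratios 3.73 and 3.72, Fisher's exact test, adjusted p = 2.3e-23 and 1.7e-22), and 60.2% for shared intervals (odds ratio 1.05, adjusted p = 0.752). A further 67 intervals (24.9%) lay inside a gene, against 47.8% and 49.8% in those 2 classes, and 37 (13.8%) lay outside genes, against 22.3% and 20.3%. Windows of both strands, as at divergent gene pairs, were met by 23 intervals (8.55%), against 1.26% and 1.42%, and by 11.5% of shared intervals. The differences from those 2 classes shrank as the boundary distance grew, from 31.5 points each at 1 kb to 19.1 and 18.9 points at 2.5 kb and to 6.92 and 7.08 points at 5 kb (Fisher's exact test, adjusted p = 0.0333 for both at 5 kb). At 5 kb the difference from shared intervals was -5.33 points (Fisher's exact test, adjusted p = 0.0354).

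Around the gene start, peaks at the 114 promoter intervals fell on either side of the start. Control anti-ETO peaks covered 44.7% of the starts at 250 bp upstream, 28.1% at 25 bp upstream and 69.3% at 100 bp downstream. Knockdown anti-Flag peaks followed nearly the same course, with 45.6%, 21.9% and 68.4%. Knockdown anti-ETO peaks covered more at each point, with 71.1%, 53.5% and 85.1%. The control anti-Flag list, which the rule keeps off these intervals, was at 5.26%, 0.877% and 7.89%, and reached its highest share of 14.9% at 525 bp downstream.

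**Figure D4:**
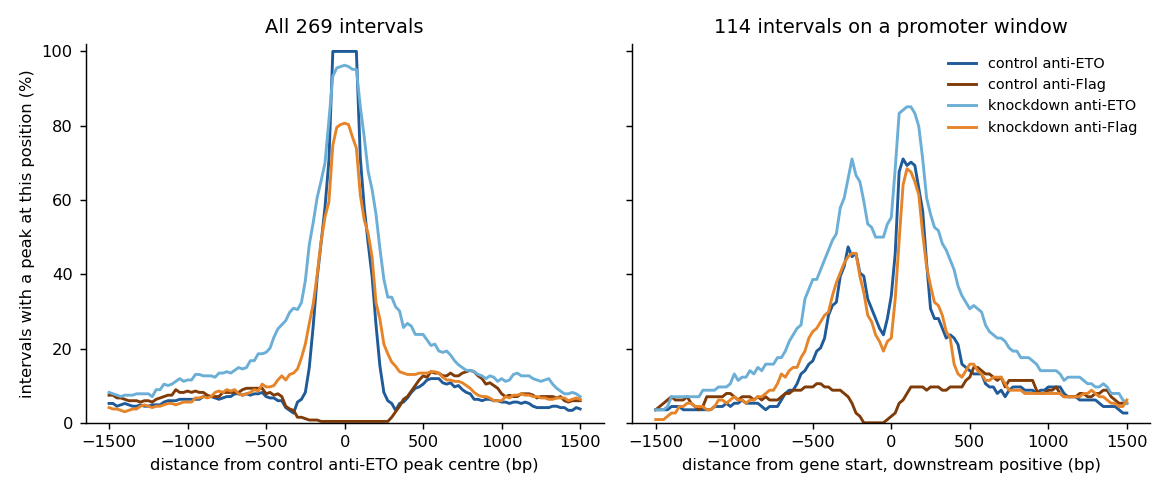
Share of intervals in % with a peak at each position (vertical axis), by distance in bp from the centre of the control anti-ETO peak (left, 269 intervals) and from the gene start (right, 114 intervals on a promoter window), for the 4 peak lists. On the left, knockdown anti-Flag peaks reach 80.7% at the centre; on the right, control anti-ETO and knockdown anti-Flag lines share a dip just upstream of the start (28.1% and 21.9% at 25 bp upstream) and a crest at 69.3% and 68.4% at 100 bp downstream.

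The dip just upstream of the start was also present at the 4028 shared intervals on promoter windows, where control anti-ETO peaks covered 73.0% at 250 bp upstream, 66.2% at 25 bp upstream and 84.6% at 100 bp downstream, and control anti-Flag peaks 69.2%, 57.7% and 85.0%. At the 114 promoter intervals, centres of the 3 kinds of peak did not move to one side. Their medians lay 9 bp downstream of the start for control anti-ETO, 14.5 bp upstream for knockdown anti-ETO and 17.5 bp downstream for knockdown anti-Flag. All 3 of the 95% intervals included 0. A control anti-Flag peak lay within 500 bp of 37 of the 114 intervals, upstream of the start at 18 and downstream at 19.

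The 114 promoter intervals carried 138 gene symbols. The genes named here were picked after their positions were seen, and no theme is claimed from them. Among regulators of transcription and chromatin, the intervals measured 819 bp at TGIF2 (chr20:36573598-36574416), 634 bp at CTBP2 (chr10:125159888-125160521), 628 bp at NFKB1 (chr4:102501715-102502342), 819 bp at KDM2B, 492 bp at HIRA, a histone H3.3 chaperone, 326 bp at PCGF3, a Polycomb subunit, and 371 bp at NFYC, a subunit of the CCAAT-binding factor NF-Y. Among growth and signalling genes, they measured 931 bp at CDKN2C, an inhibitor of CDK4 and CDK6, 959 bp at AKT2, a kinase of the insulin pathway, and 394 bp at PRKAR1A, a regulatory subunit of protein kinase A.

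Other promoter intervals, chosen in the same way, measured 467 bp at RPS14, 483 bp at RPS15, 217 bp at RPS26, 418 bp at RACK1, a scaffold on the small ribosomal subunit, 436 bp at EIF2S1, a subunit of the initiation factor that brings the initiator tRNA, and 214 bp at EIF4E2. At RACK1 the control anti-ETO peak of 418 bp and the knockdown anti-ETO peak of 418 bp were of equal width, so there the listed change was the anti-Flag peak of 365 bp. At RPS15 the knockdown anti-ETO peak measured 382 bp against 182 bp in control.

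Few genes known from AML1-ETO biology carried an interval, and their share was near that of all genes. An interval was assigned to a gene when it lay no more than 10 kb from it or overlapped it, which held for 1.82% of 20033 protein-coding genes. Of 96 genes in 7 lists (RUNX and ETO family, fusion complex partners, corepressors, myeloid regulators, surface and granule genes, cell cycle and survival genes, Notch, TGF-beta and signalling genes) 3 had one: KIT, SMAD7 and CCND3. None of 7 RUNX and ETO family genes, 11 complex partners, 10 corepressor genes, TBL1XR1 of the study's title included, or 18 myeloid regulators such as SPI1 and CEBPA had one. No test of the lists was made.

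At KIT the interval of 628 bp spanned the gene start and held a control anti-ETO peak of 235 bp, a knockdown anti-ETO peak of 592 bp and a knockdown anti-Flag peak of 189 bp, and the nearest control anti-Flag peak was 229 bp away. Near SMAD7, the inhibitory SMAD of TGF-beta signalling, the interval (chr18:48951292-48952011, 720 bp) lay 326 bp from the gene, with control anti-ETO, knockdown anti-ETO and knockdown anti-Flag peaks of 360, 720 and 279 bp. Near CCND3, a D-type cyclin, it lay 262 bp from the gene (chr6:42050298-42051170, 873 bp) within TAF8, a subunit of TFIID, with peaks of 401, 873 and 533 bp. In all 3 the knockdown anti-ETO peak was the widest of the 3 peaks and the anti-Flag gap was 229, 289 and 4027 bp.

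The 269 intervals were spread over 23 chromosomes, 36 on chromosome 1, 33 on 17 and 31 on 19. Chromosomes 11, 16, 17 and 19, picked because an earlier reading of these lists found the knockdown-unique intervals dense there, held 83 of them (30.9%, 25.6 to 36.6), against 47.1% of all knockdown-unique intervals. The share was 49.6% with a control anti-Flag peak only, 46.3% with no control peak, 30.4% of the 46 with both control peaks and 34.1% for shared intervals. Since the choice of chromosomes already favours high shares in the first 2 of these classes, the values are a description with no test. Chromosome 11 held 6 of the 269 (2.23%) against 9.04% of the other knockdown-unique intervals and 5.95% of all control anti-ETO peaks. On chromosome 13, where KPNA3 and ZDHHC20 lie, it ran the other way, with 6 (2.23%) against 0.391% and 1.42%. These shares of the 269 rest on 6 intervals each and were not tested.

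**Figure D5:**
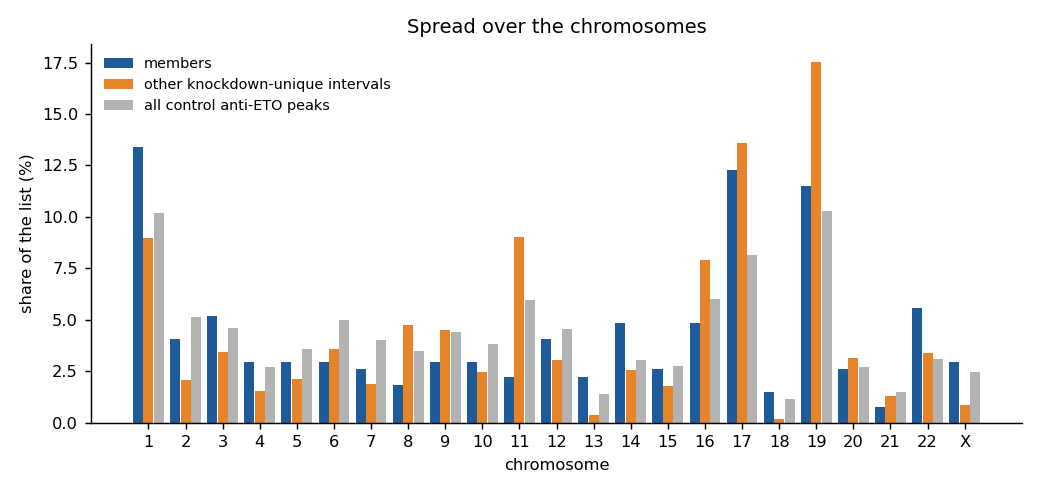
Share of each list in % (vertical axis) on each chromosome (horizontal axis) for the 269 intervals, the other knockdown-unique intervals and all control anti-ETO peaks. On chromosome 19 the 269 stand at 11.5% against 17.5% for the other knockdown-unique intervals and 10.3% for control anti-ETO peaks.

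The control anti-ETO peaks without a control anti-Flag peak numbered 1480. Both antibodies had a knockdown peak on 315 of them (21.3%, 95% Wilson interval 19.3 to 23.4), of which 259 overlapped 1 of the 269 intervals, anti-ETO alone on 654 (44.2%), anti-Flag alone on 14 (0.946%) and neither on 497 (33.6%). Of the 12784 control anti-ETO peaks that did have a control anti-Flag peak, 74.0% kept both and 20.0% anti-ETO alone. An anti-Flag peak after knockdown was thus a minority outcome at sites that began with anti-ETO alone.

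Within those 1480, position was compared between the 315 peaks on which both antibodies were listed after knockdown and the rest. A promoter window was met by 36.2% of the 315 and by 47.4% of the 654 that stayed anti-ETO only, or -11.2 points (p = 0.00229 by Fisher's exact test, adjusted over 2 comparisons). It was met by 31.4% of the 497 with no knockdown peak, an odds ratio of 1.24 that did not pass (Fisher's exact test, adjusted p = 0.169). The peaks on which both antibodies were listed thus lay at gene starts less often than those that stayed anti-ETO only, and no difference from those without a knockdown peak was shown. Median control anti-ETO widths were 287, 266 and 225 bp in the 3 sets. Both comparisons were added after the lists had been examined.

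The letters of the promoter windows were like those of other bound promoters. The 155 windows on the intervals had a median GC content of 66.0% and 27 CG dinucleotides, against 68.0% and 29 at shared intervals and 58.7% and 14 over all windows. The GC box GGGCGG was present on either strand in 78.7%, against 45.0% of all windows and 77.6% at shared intervals. CCAAT, the box of NF-Y, was present in 43.9%, against 34.6% and 35.8%, and CCGGAAG, an ETS core, in 19.4%, against 10.3% and 17.8%. CACGTG, an E-box, was present in 9.03%, against 7.26% and 10.5%, and GCGCATGC, a site of NRF1, in 5.81%, against 3.05% and 5.98%. The palindrome TGACGTCA, the cyclic AMP response element, was present in 9 windows (5.81%, 95% Wilson interval 3.08 to 10.7), against 1.85% of all windows, 4.53% at knockdown-unique intervals with no control peak (2.55 to 7.92), 2.05% at those with a control anti-Flag peak only, 2.56% at shared intervals and 3.06% at control anti-ETO peaks that stayed anti-ETO only. TATAAA was rare, in 2.58% against 11.5% and 3.88%. Each motif was searched on both strands with matches of different motifs counted separately, and the shares are descriptions without a test.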

How the data were processed

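The authors' deposited files were 9 lists of peak positions with no score, read number or replicate. Their values are coordinates (chromosome, start and end), with no log, count or signal scale. The submitters' processing notes name fastp 0.19.5, Bowtie2 2.3.5, MACS2 2.2.5 and HOMER 4.8 and the builds hg38 and sacCer3; roles, thresholds, use of IgG and handling of replicates are not given in the sources used here. Starts were moved to count from 1. Overlap meant a shared stretch of 1 bp or more, computed in Python 3.11.15 (numpy 2.4.6, pandas 2.3.3, scipy 1.17.1, statsmodels 0.14.6), and functions were tested on simulated lists. Where an interval met several peaks of a list, the widest was measured. Gene ends and promoter windows are RefSeq GRCh38.p14; GRCh38 is the assembly that hg38 names. Shares carry Wilson intervals, and classes were compared by two-sided Fisher's exact tests. The planned tests by chromosome are not printed, because the chromosomes were picked on these lists. The intervals and gene lists were chosen with earlier results of these data known. Named intervals are the 10 widest, those at list genes, the 5 shortest and 5 longest overlaps and the 5 nearest misses; the others are said to be named after their values were seen. 1 interval named by this rule is not reported here. The planned count of TGTGGT in the central 300 bp of intervals was not run, because no genome was used here, and promoter windows took its place. Alternatives were other overlaps, distances, chromosomes, widths and runs.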

Additional observations from a re-analysis of the deposited data

How the results depend on the processing

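No paired analysis was possible because the lists carry no replicates, and for the same reason no library could be left out. Of the alternatives, 70 results were classed as keeping their direction and side of the threshold or moving little. The fall from 269 to 186 intervals, given next, was among the 70, while the matching share was classed as moved. With a control anti-Flag peak within 500 bp counted as present, 186 of the 269 intervals remained (4.03% of the knockdown-unique list), and within 1000 bp 157 (3.40%). With only the wider 50% of control anti-ETO peaks, 35 remained (0.758%), since most of these peaks are narrow. In the wider 50% of each class the median width was 667.5 bp and the median width ratio 1.85, as the selection by width implies. The differences near gene boundaries from the classes with a control anti-Flag peak only and with no control peak fell from 31.5 points to 6.92 and 7.08 at 5 kb, still past the threshold. Against shared intervals, the difference near gene boundaries, 1.09 points, reversed to -0.568 with anti-Flag within 500 bp counted, -1.67 with 1 interval for each run within 10 kb, -2.58 in the wider 50%, -1.86 at 2.5 kb and -5.33 at 5 kb, and only the last passed the threshold (Fisher's exact test, adjusted p = 0.0354). The difference on chromosomes 11, 16, 17 and 19, -3.26 points, reversed to 1.20 with 1 interval for each run. On promoter windows it passed the threshold at -7.32 points with 1 interval for each run and at -8.77 points in the wider 50%. The cause of these shifts was not tested. The planned motif comparison in the central 300 bp and its alternatives were not run, since no genome was used here.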

Other observations

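The 269 intervals rarely had another of their kind nearby: 249 had none within 50 kb, and the others formed 10 pairs. Pairs lay at 1 gene for ERF, an ETS-family repressor (192 and 331 bp), for RPL27, a protein of the large ribosomal subunit (589 and 535 bp), and for CFAP20 (219 and 358 bp). Other pairs joined RIMS3 and the start of NFYC, MAP7D1 and THRAP3, S100A13 and ILF2, and the zinc finger genes ZNF57 and ZNF77. No run of 3 or more was present.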
